A study of Mus musculus with 4 samples.

Results

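The genes described here encode 8 enzymes of the tricarboxylic acid (TCA) cycle and of the entry of glutamine carbon into it, chosen by gene symbol from the 39179 genes counted. They are *Cs*, *Idh1*, *Idh2*, *Idh3a*, *Ogdh*, *Fh1*, *Mdh2* and *Glud1*. RNA-seq was performed on B16F1, a mouse melanoma cell line, with 2 libraries of parental control cells and 2 of tumor repopulating cells (TRCs), numbered as replicates 1 and 3 in either group. The parental cells were grown on rigid culture dishes, and the TRCs are spheroid cells isolated from soft 3D fibrin gels seeded with the same line. Only a minority of seeded cells form spheroids, so selection of cells and growth in the gel cannot be told apart. The labels name no genetic change or drug treatment in any group, and nothing states that the 2 libraries of a group came from separate cultures, so p-values measure the spread between libraries, which may be technical.

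The TCA cycle takes up acetyl groups as citrate in the mitochondrial matrix and oxidizes them to carbon dioxide, passing electrons to the respiratory chain. Glutamine feeds the cycle after it has been turned into glutamate, and glutamate dehydrogenase or transaminases have turned glutamate into α-ketoglutarate. In tumor cells, citrate and malate also leave the mitochondrion to supply lipid synthesis and NADPH in the cytosol. The comparison asks whether mRNA of these enzymes differs between TRCs and the line from which they grew.

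All 8 enzymes were well expressed and none was called differentially expressed. With edgeR's exact test and a Benjamini-Hochberg false discovery rate (FDR) under 0.05 over the 11483 genes tested, 0 of the 8 were upregulated and 0 downregulated in TRCs, while 15.9% of all genes tested were called, 8.81% upregulated and 7.05% downregulated. An unadjusted p under 0.05 was found for 1 of the 8, *Idh1*, against 28% of all genes tested. The quasi-likelihood test of edgeR called 0 of the 8 and 9.18% of all genes tested, or 6.84% with the replicate number as a block, again with 0 of the 8. DESeq2's Wald test called 0 of the 8 and 17.7% of all genes tested. The median log2 fold change (TRC minus parental) was −0.23 over the 8 enzymes and 0.003 over all genes tested, and the range was from −0.47 for *Idh3a* to 0.59 for *Idh1*. By sign, 2 of the 8 were higher in TRCs, the NADP-dependent isocitrate dehydrogenases *Idh1* and *Idh2*, and 6 were lower. Over all genes tested, 50.3% were higher in TRCs. In bulk RNA, fewer cells with a transcript and less transcript per cell cannot be told apart.

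The libraries held between 35948295 and 43511554 counts on genes, and the enzymes had between 3182 counts (*Idh1* in parental replicate 1) and 15812 counts (*Idh2* in TRC replicate 1), so counting error was small beside the spread between libraries. Alignments that were not unique and were counted for no gene made up 15.2% to 25.2% of alignments, with the highest share in TRC replicate 3. Genes of the melanocyte lineage, which mark this line, summed to 18892 and 15697 CPM (counts scaled to a common library size) in parental replicates 1 and 3, against 23939 and 26641 CPM in the TRC libraries. All 7 were detected in every library and had higher means in TRCs (median difference 0.41 on the log2 scale), but the groups overlapped for 5 of them. Both TRC libraries lay above both parental libraries for 2 of the 7, against 30.2% of all genes tested. The one called was *Dct*, a melanin synthesis enzyme (1.08, FDR = 0.000307 in the exact test), where 15.9% of all genes tested were called. Its FDR was 0.0704 in the quasi-likelihood test and 0.0353 with the replicate block. The part of these melanocyte gene differences in the levels of the 8 enzymes was not tested. Of the markers of other cell types, *Ptprc* and *Cd3e* of leukocytes and *Cdh5* and *Kdr* of endothelium had 0 counts in every library, and the summed level was 1.66 to 4.92 CPM for 4 leukocyte genes, 2.04 to 4.67 CPM for 5 fibroblast genes, 0.048 to 0.198 CPM for 4 endothelial genes and 0.453 to 1.83 CPM for 4 epithelial genes. An exact permutation test of 2 against 2 libraries cannot give a p below 0.33, so each p rests on the model fitted across genes.

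**Figure D1:**
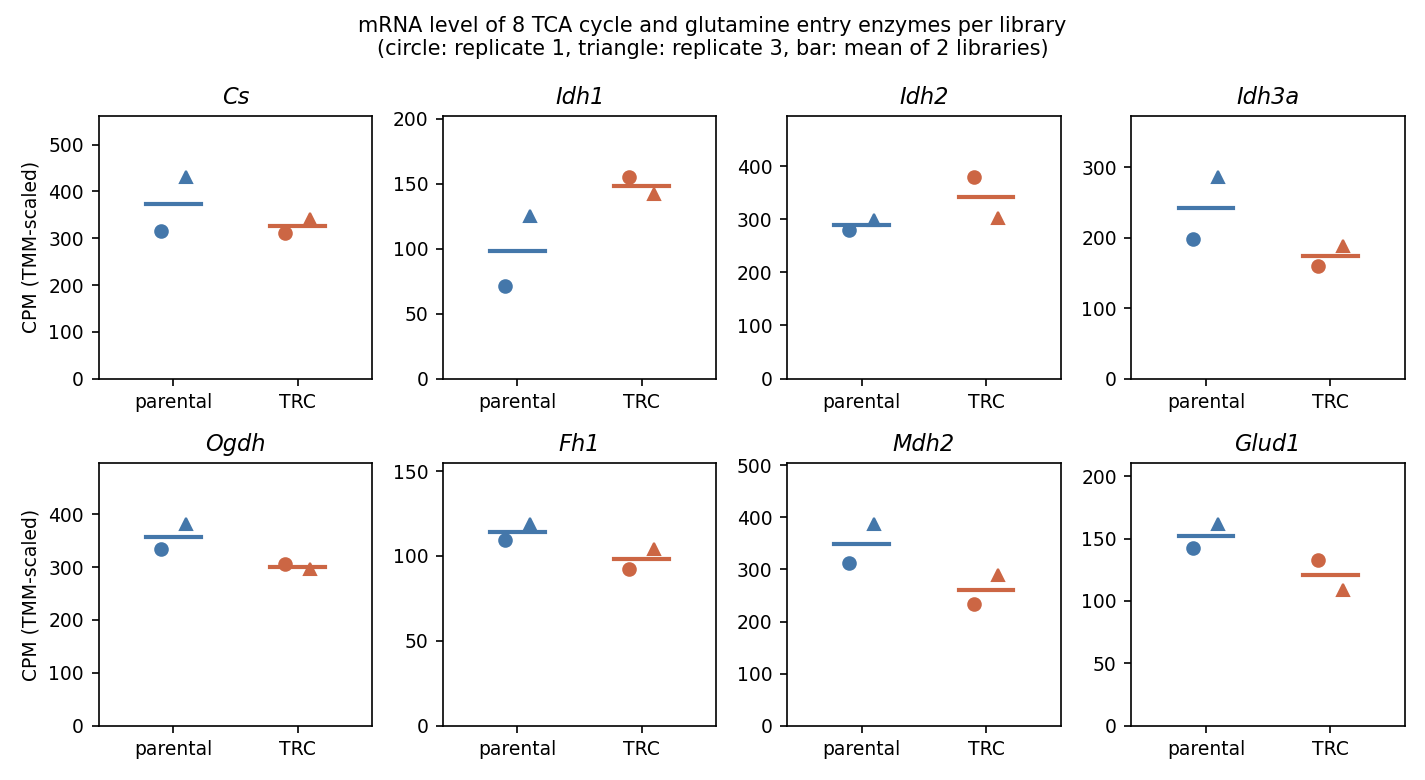
Level of each enzyme's mRNA in CPM scaled by TMM (vertical axis, from 0), with parental libraries in blue and TRC libraries in orange, circles for replicate 1, triangles for replicate 3 and bars for the mean of 2 libraries. Both TRC libraries lay above both parental libraries for *Idh1* and *Idh2* and below them for *Idh3a*, *Ogdh*, *Fh1*, *Mdh2* and *Glud1*, while the groups overlapped for *Cs*. Over all genes tested, both TRC libraries lay above for 30.2% and below for 30.4%.

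Levels in the following are CPM scaled by edgeR's TMM method, which corrects library sizes for composition, and standard errors (SE) and 95% intervals of log2 fold changes come from the DESeq2 fit. *Cs* (ENSMUSG00000005683, chromosome 10 from 128337734 to 128362479, GRCm38) encodes citrate synthase, which opens the cycle by joining acetyl-CoA to oxaloacetate. Its level was 316 and 431 CPM in parental replicates 1 and 3, and 312 and 342 CPM in TRC replicates 1 and 3. The TRC libraries fell within and just below the range of the parental libraries. The log2 fold change was −0.19 (SE 0.23, FDR = 0.663 in the exact test, 95% interval −0.64 to 0.25), and without parental replicate 3 it was 0.046, with the direction turned.

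Isocitrate dehydrogenase, the next oxidative step, exists in 3 forms. *Idh1* (ENSMUSG00000025950, minus strand of chromosome 1 from 65158616 to 65186500) encodes the cytosolic and peroxisomal form, which makes or uses NADPH. It had 71.5 and 125 CPM in parental replicates 1 and 3, and 155 and 142 CPM in TRC replicates 1 and 3. Both TRC libraries were higher, but parental replicate 3 lay closer to the TRCs than to parental replicate 1. The mean was 98.4 ± 38.1 CPM (SD, n = 2) in parental cells and 149 ± 9.59 CPM (SD, n = 2) in TRCs. The log2 fold change was 0.59 (SE 0.29, FDR = 0.131 in the exact test, 95% interval 0.03 to 1.16). Its size depended on which parental libraries were used. Without parental replicate 3 the log2 fold change was 1.05 (FDR = 0.00634 in the exact test), and without parental replicate 1 it was 0.24 (FDR = 0.605), where the single library left in a group was assumed to vary like the others.

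*Idh2* (ENSMUSG00000030541, minus strand of chromosome 7 from 80094846 to 80115392) encodes the mitochondrial NADP-dependent form. Its level was 281 and 299 CPM in the parental libraries, and 380 and 303 CPM in TRC replicates 1 and 3. The groups did not overlap, but TRC replicate 3 exceeded parental replicate 3 by little. The log2 fold change was 0.24 (SE 0.21, FDR = 0.555 in the exact test, 95% interval −0.17 to 0.64), and 0.053 without TRC replicate 1. Genes of chromosome 7 as a whole also differed between the TRC libraries. Over the 810 genes tested there, the median log2 level of replicate 1 exceeded that of replicate 3 by 0.22, where *Idh2* differed by 0.33, and their median log2 fold change between groups was 0.17. The part of this in the value of *Idh2* was not tested.

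*Idh3a* (ENSMUSG00000032279, chromosome 9 from 54586334 to 54604661) encodes the catalytic subunit of the NAD-dependent form that runs in the cycle proper. It had 198 and 287 CPM in parental replicates 1 and 3, and 160 and 189 CPM in TRC replicates 1 and 3. Both TRC libraries were lower, although TRC replicate 3 came within 10 CPM of parental replicate 1. The log2 fold change of −0.47 was the lowest of the 8 (SE 0.25, FDR = 0.204 in the exact test, 95% interval −0.96 to 0.01). Without parental replicate 1 it was −0.72, which passed the threshold (FDR = 0.0493 in the exact test), and without parental replicate 3 it was −0.19 (FDR = 0.813).

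*Ogdh* (ENSMUSG00000020456, chromosome 11 from 6291633 to 6356642) encodes the substrate-binding dehydrogenase subunit of the α-ketoglutarate dehydrogenase complex. Its level was 334 and 382 CPM in parental cells, and 306 and 296 CPM in TRCs. Both TRC libraries were lower by a small margin, with a log2 fold change of −0.25 (SE 0.19, FDR = 0.511 in the exact test, 95% interval −0.63 to 0.13). The 955 genes tested on chromosome 11 had a median log2 fold change of −0.093. Their median log2 difference, TRC replicate 1 minus replicate 3, was −0.17, where that of *Ogdh* was 0.052. The part of this in the value of *Ogdh* was not tested. The partners of *Ogdh* in the complex, singled out after their values were seen, are *Dlst*, the succinyltransferase, and *Dld*, the dehydrogenase that the complex shares with pyruvate dehydrogenase. *Dlst* had 194 and 218 CPM in parental cells and 145 and 151 CPM in TRCs, with a log2 fold change of −0.47 (SE 0.19, FDR = 0.142 in the exact test). *Dld* had 217 and 222 CPM in parental cells and 175 and 174 CPM in TRCs, with a log2 fold change of −0.33 (SE 0.18, FDR = 0.33 in the exact test). For the 3 subunits alike both TRC libraries lay below both parental libraries, as they did for 30.4% of all genes tested. None of the 3 was called.

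*Fh1* (ENSMUSG00000026526, minus strand of chromosome 1 from 175600374 to 175625635) encodes fumarase, which hydrates fumarate to malate. It had 109 and 119 CPM in parental cells, and 92.2 and 104 CPM in TRCs, with a log2 fold change of −0.22 (SE 0.20, FDR = 0.564 in the exact test, 95% interval −0.61 to 0.18). *Mdh2* (ENSMUSG00000019179, chromosome 5 from 135778480 to 135790398) encodes mitochondrial malate dehydrogenase, which closes the cycle. Its level was 312 and 388 CPM in parental replicates 1 and 3, and 233 and 289 CPM in TRC replicates 1 and 3. Replicate 3 was the higher library of *Mdh2* in both groups, by nearly the same amount, 0.31 on the log2 scale, and the log2 fold change was −0.42 (SE 0.22, FDR = 0.243 in the exact test, 95% interval −0.86 to 0.01).

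*Glud1* (ENSMUSG00000021794, chromosome 14 from 34310727 to 34345265) encodes glutamate dehydrogenase, through which glutamate nitrogen is released and its carbon enters as α-ketoglutarate. It had 142 and 162 CPM in parental cells, and 133 and 109 CPM in TRC replicates 1 and 3. Both TRC libraries were lower, with a log2 fold change of −0.33 (SE 0.21, FDR = 0.368 in the exact test, 95% interval −0.75 to 0.09). TRC replicate 1 exceeded TRC replicate 3 by 0.28 on the log2 scale, and the 385 genes tested on chromosome 14 did so by a median of 0.25. Between groups, these genes had a median log2 fold change of 0.13, opposite in sign to that of *Glud1*. One processed pseudogene, *Glud-ps*, carries the name of *Glud1* in the annotation, and reads that matched both equally were not counted.

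**Figure D2:**
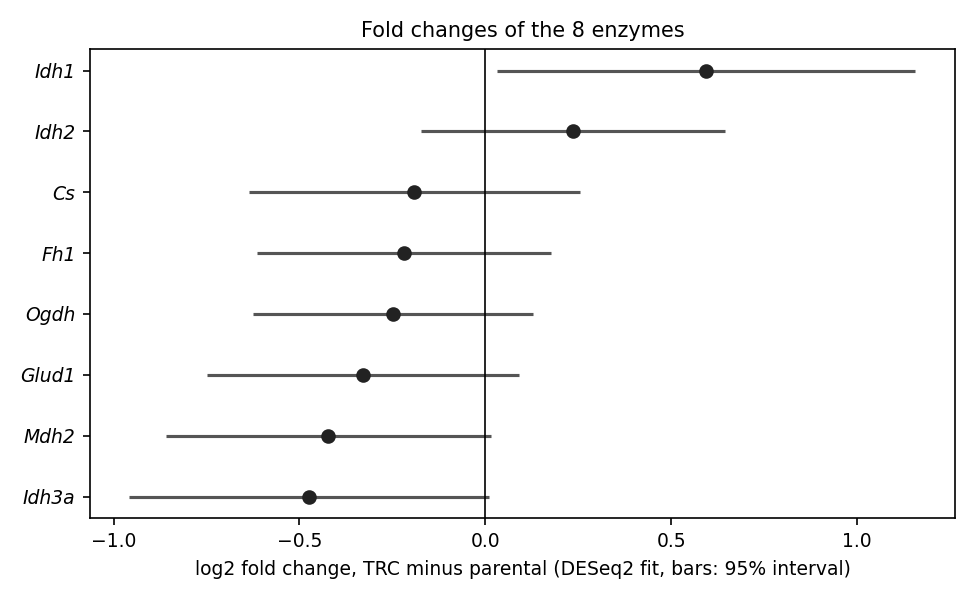
Log2 fold change of the 8 enzymes (horizontal axis, TRC minus parental, DESeq2 fit, points) with 95% intervals (bars). The interval of *Idh1*, from 0.03 to 1.16, was the one that left out 0 and the one that reached past a 2-fold change (1 on the log2 scale).

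For 7 of the 8 enzymes the 95% interval lay within a 2-fold change in either direction, with bounds between −0.96 and 0.64. Each of these 7 intervals also held 0, so with 2 libraries per group smaller changes of these enzymes could not be told from 0. Non-overlap of the groups was common in these data. Both TRC libraries lay above both parental libraries for 30.2% of all genes tested and below for 30.4%, against 2 and 5 of the 8 enzymes. Parental replicate 3 was higher than parental replicate 1 for all 8 enzymes, by 0.09 (*Idh2*) to 0.81 (*Idh1*) on the log2 scale, and TRC replicate 3 was higher than TRC replicate 1 for 4. The median absolute difference between the 2 libraries of a group was 0.25 over the enzymes and 0.25 over all genes tested in parental cells, and 0.20 and 0.21 in TRCs. Summed over the 8 enzymes, the level was 1764 CPM in parental replicate 1, 2192 CPM in parental replicate 3, and 1772 CPM in both TRC libraries. The TRC sum therefore equalled that of the lower parental library to within 9 CPM. Against parental replicate 1 the median log2 difference of the enzymes was −0.11 for TRC replicate 1 and −0.071 for TRC replicate 3, and against parental replicate 3 it was −0.34 and −0.35.

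Levels of different genes were compared per kilobase of exon (RPKM, TMM-scaled CPM divided by the length of the union of exons). In parental cells the order of means was *Idh2* (112 RPKM), *Mdh2* (98.2), *Ogdh* (65.6), *Cs* (64.7), *Idh3a* (47.8), *Glud1* (36.1), *Idh1* (35.5) and *Fh1* (33.6). Of these neighbors, *Mdh2* and *Ogdh*, and *Idh3a* and *Glud1*, did not overlap between libraries, and the other neighbors did. In TRCs the order was *Idh2* (132 RPKM), *Mdh2* (73.2), *Cs* (56.6), *Ogdh* (55.2), *Idh1* (53.6), *Idh3a* (34.4), *Fh1* (28.9) and *Glud1* (28.7). Here *Cs*, *Ogdh* and *Idh1* overlapped from one to the next, as did *Fh1* and *Glud1*, while the remaining neighbors were separate. The order depends on the length used. Per kilobase of the longest transcript, an alternative added after the data were seen, *Mdh2* (218) stood above *Idh2* (162) in the parental mean. There *Cs* (124) and *Idh3a* (93.9) also stood above *Ogdh* (86.7), and *Fh1* (43.3) above *Idh1* (42.8). In the TRC mean, *Idh3a* (67.6) stood above *Idh1* (64.5).

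The balance of isoenzymes can be read within a library, where no scaling between libraries enters. The ratio of *Idh1* to *Idh2* in counts per kilobase was 0.238 and 0.391 in parental replicates 1 and 3, against 0.382 and 0.438 in the TRC libraries. The groups overlapped, since parental replicate 3 exceeded TRC replicate 1, and the mean log2 ratio was 0.42 higher in TRCs, or 0.063 without parental replicate 1 and 0.78 without parental replicate 3. The ratio of *Idh3a* to *Idh3b*, a partner subunit, was 1.33 and 1.58 in parental cells and 1.16 and 1.22 in TRCs. The ratio of *Idh3a* to *Idh3g*, the other partner, was 1.26 and 1.63 in parental cells and 1.02 and 1.18 in TRCs. Both subunit ratios were lower in both TRC libraries, with a mean difference of −0.28 and −0.38 on the log2 scale. On their own, *Idh3b* had a log2 fold change of −0.18 (FDR = 0.673 in the exact test) and *Idh3g* of −0.075 (FDR = 0.865). Without parental replicate 3 the differences were −0.16 for *Idh3a* to *Idh3b* and −0.20 for *Idh3a* to *Idh3g*, and without parental replicate 1 they were −0.41 and −0.57. The ratios were not tested between groups.

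**Figure D3:**
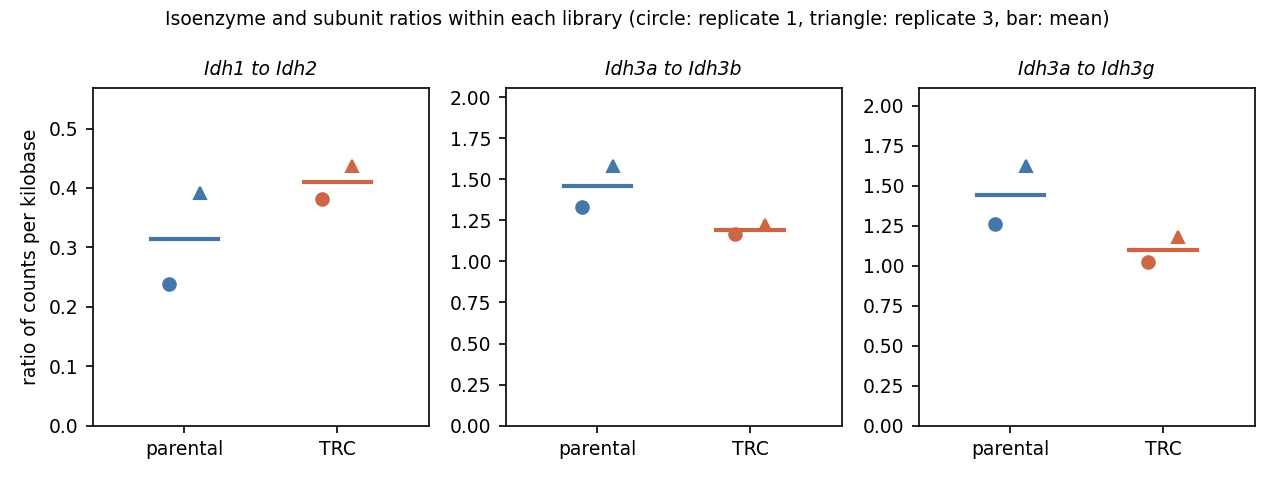
Ratios of counts per kilobase within each library (vertical axes, from 0), with parental libraries in blue, TRC libraries in orange, circles for replicate 1, triangles for replicate 3 and bars for the mean. The ratio of *Idh1* to *Idh2* overlapped between groups at 0.391 in parental replicate 3 and 0.382 in TRC replicate 1, and both *Idh3a* ratios were lower in TRCs.

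Of 16 other enzymes of the cycle that were listed, 15 were tested, 0 were called, and 1 had an unadjusted p under 0.05 in the exact test (*Dlst*), while the quasi-likelihood and Wald tests also called 0. Over all genes tested, the exact test called 15.9%, and 28% had an unadjusted p under 0.05. The median log2 fold change of the 15 enzymes was −0.14, with 4 higher and 11 lower in TRCs, where 50.3% of all genes tested were higher. The most abundant by CPM over both groups were *Sdha*, the flavoprotein subunit of succinate dehydrogenase, at 369 ± 30.9 CPM in parental cells and 348 ± 3.61 CPM in TRCs (SD, n = 2), and *Mdh1*, the cytosolic malate dehydrogenase, at 255 ± 52.9 and 294 ± 30.9 CPM (SD, n = 2). The log2 fold change of *Sdha* was −0.084 (FDR = 0.855 in the exact test) and turned to 0.0008 without parental replicate 3. That of *Mdh1* was 0.21 (FDR = 0.633 in the exact test), and 0.009 without parental replicate 1.

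Of 7 genes of pyruvate entry, 0 were called by the exact, quasi-likelihood and Wald tests, where the exact test called 15.9% of all genes tested. An unadjusted p under 0.05 in the exact test was found for 1 of the 7, against 28% of all genes tested. That gene was *Pdhx*, a structural subunit of pyruvate dehydrogenase, singled out after its values were seen, with 44.0 and 53.3 CPM in parental cells and 32.4 and 34.2 CPM in TRCs (log2 fold change −0.54, SE 0.23, FDR = 0.106 in the exact test). The most abundant of the 7 by CPM over both groups were *Pdha1*, the catalytic subunit, with a log2 fold change of −0.13 (FDR = 0.759 in the exact test), and *Dlat*, the acetyltransferase, with −0.43 (FDR = 0.202).

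Glutamine uptake and glutamate conversion held 2 called genes among 10 tested of 11 listed, where 15.9% of all genes tested were called. Of the 10, 1 was upregulated and 1 downregulated, against 8.81% and 7.05% of all genes tested. The median log2 fold change of the 10 was −0.087. *Gls2*, the liver-type glutaminase, rose from 0.876 and 1.10 CPM to 2.38 and 3.96 CPM, a log2 fold change of 1.68 (SE 0.59, FDR = 0.0107 in the exact test). These levels rest on 39 counts in each parental library and on 99 and 165 in the TRC libraries. *Slc38a2*, a sodium-coupled transporter of neutral amino acids including glutamine, had 705 and 953 CPM in parental cells and 544 and 417 CPM in TRCs, and fell with a log2 fold change of −0.79 (SE 0.24, FDR = 0.0182 in the exact test). Neither was called by the quasi-likelihood test, with FDR = 0.062 for *Gls2* and 0.0789 for *Slc38a2*. With single libraries left out, *Gls2* lost its call in the exact test without parental replicate 1 (FDR = 0.0785), parental replicate 3 (0.0575) or TRC replicate 3 (0.24), and *Slc38a2* lost it without parental replicate 3 (0.284) or TRC replicate 3 (0.292). Their directions held in each case. *Glul*, glutamine synthetase, which makes glutamine from glutamate and was singled out after its values were seen, had 101 and 124 CPM in parental cells and 167 and 177 CPM in TRCs (log2 fold change 0.61, SE 0.21, FDR = 0.0519 in the exact test and 0.0246 in DESeq2's Wald test).

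The next list holds mitochondrial carriers and enzymes that take citrate, malate and related metabolites out of the cycle. Of 13 genes tested, 3 were upregulated and 0 downregulated in the exact test, against 8.81% and 7.05% of all genes tested. An unadjusted p under 0.05 in that test was reached by 5 of the 13, against 28% of all genes tested. The quasi-likelihood test called 2 of the 13 and 9.18% of all genes tested. The median of the 13 log2 fold changes was −0.057. *Slc25a1*, the mitochondrial citrate carrier, had 58.1 and 58.2 CPM in parental replicates 1 and 3, and 134 and 148 CPM in TRC replicates 1 and 3. It rose with a log2 fold change of 1.28 (SE 0.20, FDR = 8.88e-07 in the exact test, 95% interval 0.89 to 1.66), and leaving out any 1 library kept it between 1.20 and 1.34 with FDR values up to 0.00109. *Me1*, the cytosolic NADP-dependent malic enzyme, rose from 104 and 136 CPM to 208 and 217 CPM, a log2 fold change of 0.82 (SE 0.22, FDR = 0.00685 in the exact test). Its call was lost without parental replicate 1 (log2 fold change 0.64, FDR = 0.103), TRC replicate 1 (0.84, FDR = 0.0633) or TRC replicate 3 (0.79, FDR = 0.0845). *Me2*, the mitochondrial NAD-dependent malic enzyme, had 62.5 and 94.6 CPM in parental cells and 93.0 and 207 CPM in the TRC libraries, replicate 3 being the higher. It was called (log2 fold change 0.93, SE 0.36, FDR = 0.0451 in the exact test) on overlapping groups, and without TRC replicate 3 its log2 fold change was 0.25 (FDR = 0.748). It was also not called without parental replicate 1 (0.66, FDR = 0.288), with no filter on low counts (FDR = 0.0783), in the quasi-likelihood test (FDR = 0.137) or in DESeq2's Wald test (FDR = 0.055). *Acly*, the cytosolic ATP citrate lyase that cleaves exported citrate, singled out after its values were seen, had 310 and 557 CPM in parental cells and 547 and 620 CPM in TRCs, with overlapping groups (log2 fold change 0.43, SE 0.29, FDR = 0.328 in the exact test). Without parental replicate 3 its value was 0.91 (FDR = 0.0378 in the exact test).

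**Figure D4:**
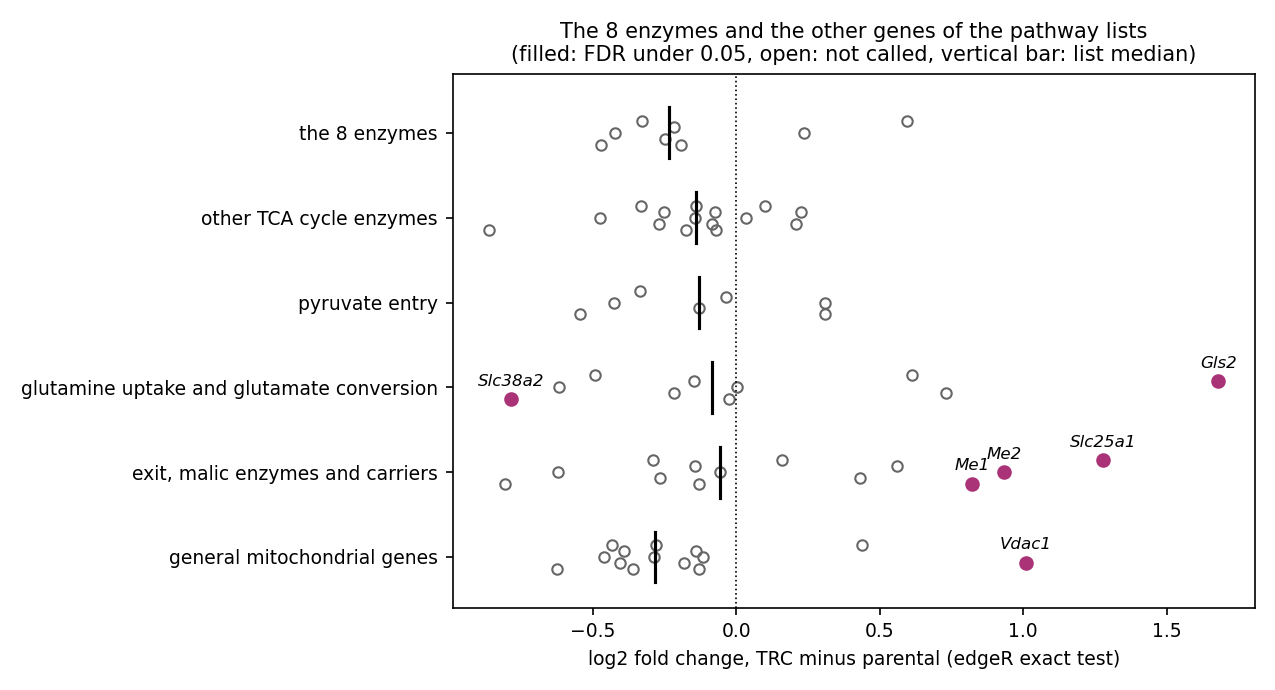
Log2 fold change (horizontal axis, TRC minus parental, edgeR's exact test) of the 8 enzymes and of the other genes tested in 5 lists (rows), with filled points for FDR under 0.05, open points for genes not called and vertical bars for list medians. The 8 enzymes lie between −0.47 and 0.59 with no filled point. Of the 59 genes tested in the other lists, 6 are called, where 15.9% of all genes tested were called.

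General mitochondrial genes were compared as a reference. Of 14 tested, 1 was upregulated and 0 were downregulated, against 8.81% and 7.05% of all genes tested. Levels in TRCs were lower for 12 of the 14, where 50.3% of all genes tested were higher, and the median log2 fold change of the 14 was −0.28. Both TRC libraries lay below both parental libraries for 8 of the 14 and above them for 2. Over all genes tested, these shares were 30.4% and 30.2%. The gene called was *Vdac1*, a channel of the outer membrane, with 440 and 544 CPM in parental cells, and 644 and 1338 CPM in the TRC libraries, replicate 3 being the higher. Its log2 fold change was 1.01 (SE 0.32, FDR = 0.0151 in the exact test), and 0.39 (FDR = 0.508) without TRC replicate 3. It was also not called without parental replicate 1 (FDR = 0.138) or parental replicate 3 (FDR = 0.0634), or in the quasi-likelihood test (FDR = 0.0976). The adenine nucleotide carriers differed in sign, with a log2 fold change of 0.44 for *Slc25a4* (FDR = 0.198 in the exact test) and −0.62 for *Slc25a5* (FDR = 0.091), the latter singled out after its values were seen and past the threshold without parental replicate 1 (−0.92, FDR = 0.0113). Measured as the root mean square distance of mean-centred log2 levels over the 4 libraries, the genes of the 5 lists most like the mean of the 8 enzymes were *Vdac2* (0.0086), *Suclg2*, a subunit of succinyl-CoA ligase (0.051), and *Tomm20*, a receptor of protein import (0.053). Their log2 fold changes were −0.12, −0.14 and −0.13, and none was called. The mean of the 8 enzymes joins 2 that were higher and 6 that were lower in TRCs. Likeness to this mean is therefore not likeness to each enzyme. The direction of *Vdac2* turned without parental replicate 3 (0.063).

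Hypoxia-inducible factors, transcription factors known to act on metabolic genes, bind a core of ACGTG or GCGTG. These letters were searched on both strands in the 250 bases before the transcription start from RefSeq (GRCm38.p6), where CACGTG counts as 2 matches. A window was found for 7 of the 8 enzymes, all but *Idh3a*, and 5 of the 7 held a match, against 38.6% of 32817 windows of this length over all genes. Those windows were not matched to the enzymes for expression or base composition, and a gene could have several. An excess of matches can therefore not be read from these shares. Shown here are the windows of the enzyme with the highest fold change, *Idh1*, of the lowest that had a window, *Mdh2*, and of the upregulated citrate carrier gene *Slc25a1*, with matches in capitals. They lie at chr1:65186480-65186729 (minus strand), chr5:135778399-135778648 (plus strand) and chr16:17928220-17928469 (minus strand). The RefSeq starts of *Idh1* and *Mdh2* lie inside the genes as placed above, so their windows reach into these genes. The match in the *Mdh2* window lies within the gene as placed above.
Idh1: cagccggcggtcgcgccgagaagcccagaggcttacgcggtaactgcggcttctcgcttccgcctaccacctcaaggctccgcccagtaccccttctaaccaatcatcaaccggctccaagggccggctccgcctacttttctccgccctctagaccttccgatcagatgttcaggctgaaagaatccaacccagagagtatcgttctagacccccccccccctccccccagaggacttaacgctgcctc
Mdh2: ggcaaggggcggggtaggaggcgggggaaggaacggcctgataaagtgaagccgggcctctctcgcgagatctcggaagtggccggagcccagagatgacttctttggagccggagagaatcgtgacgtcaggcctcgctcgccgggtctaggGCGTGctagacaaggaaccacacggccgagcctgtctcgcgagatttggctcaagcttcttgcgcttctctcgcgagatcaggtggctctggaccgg
Slc25a1: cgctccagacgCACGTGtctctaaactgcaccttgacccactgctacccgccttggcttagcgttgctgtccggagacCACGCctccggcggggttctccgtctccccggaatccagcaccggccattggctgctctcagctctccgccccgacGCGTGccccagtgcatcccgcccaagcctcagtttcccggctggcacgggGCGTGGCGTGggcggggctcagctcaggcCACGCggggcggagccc
The window of *Idh1* held 0 matches, that of *Mdh2* 1 and that of *Slc25a1* 7. A match describes the letters only, and no binding was measured.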

How the data were processed

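The 4 samples, 2 parental and 2 TRC, were grouped by their labels. The authors made stranded libraries for single-end sequencing, used Trimmomatic 0.35 for trimming and TopHat2 2.1.0 for alignment (GRCm38, Ensembl annotation), and deposited raw counts per gene from htseq-count, 1 file per library. Its strand setting is not given in the sources used here. Totals that are no gene (20.2% to 29.0% of alignments) were removed. Following the study's methods, a gene under 1 CPM in at least 3 of the 4 samples was dropped, and edgeR 4.0.16 (R 4.3.3, prior count 0.125) gave TMM factors, dispersions (common, then tagwise) and the exact test. The numbers of genes tested and called differ slightly from those the paper reports, so shares over all genes tested are not the study's own. Log2 levels used CPM plus 0.5. Standard errors and intervals came from DESeq2 1.42.0. Symbols, positions and exon lengths came from GENCODE M21 (GRCm38), which held 37693 of the 39179 identifiers. Scripts were tested on simulated data. Plots used matplotlib 3.10.9.

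At these depths 3 counts correspond to 0.0689 to 0.0835 CPM, a bound on counting error only. The enzymes, gene lists and tests were chosen with earlier results of these data known. Some genes of the lists are not reported here and entered no list count. Named are the 8 enzymes, every called gene of the other lists, the most abundant genes of a list up to 2 where fewer than 2 were called, the partner subunits of *Idh3a*, and the 3 genes nearest in pattern. Genes named outside this rule are marked as singled out after their values were seen. The alternatives were 3 other filters, 2 other normalizations, the quasi-likelihood test of edgeR, alone or with the replicate number as a block, DESeq2's Wald test, the longest transcript as length for ratios and levels, and each library left out in turn.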

Additional observations from a re-analysis of the deposited data

How the results depend on the processing

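With 2 libraries per group, single libraries set the range of most values, while other filters and normalizations turned no direction. The count of genes called was 1012 higher and 810 lower in TRCs by the exact test, 567 and 487 by edgeR's quasi-likelihood test, and 477 and 308 by that test with a replicate block. The replicate numbers were not taken to pair the samples, since same-numbered libraries deviated together with r = 0.027 across genes and only 2 pairs exist. Under the block, and without it, the quasi-likelihood test called 0 higher and 0 lower genes of glutamine uptake and conversion (exact test 1 and 1) and 0 higher general mitochondrial genes (exact test 1). The block also gave log2 fold changes of 0.098 for *Pck2* and 0.28 for *Gpt2*, against −0.29 and −0.025. DESeq2's Wald test and the filter of 1 CPM in 3 samples each called 2 glutamine genes higher. Leaving out single libraries gave 447 to 1109 genes called higher and 250 to 856 lower, 0 to 1 of the 8 enzymes in each direction, and a median of the 8 from −0.37 to −0.16. It gave 1 to 4 exit genes higher and 0 to 1 lower, 0 to 1 in each direction for glutamine and for general mitochondrial genes, and 0 for the other cycle enzymes and pyruvate entry. The log2 fold change ran from −0.40 to 0.046 for *Cs*, 0.24 to 1.05 for *Idh1*, −0.72 to −0.19 for *Idh3a*, −0.15 to 0.0043 for *Idh3g*, −0.17 to 0.00079 for *Sdha*, −0.28 to 0.063 for *Vdac2*, −1.03 to 1.28 for *Pck2*, −0.70 to 1.29 for *Gpt2* (0.083 without TRC replicate 1) and −1.06 to 0.023 for *Slc1a5*. The cause of these shifts was not tested.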

Other observations

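Some genes of glutamine and phosphoenolpyruvate metabolism, singled out after their values were seen, differed more between the 2 parental libraries than between the groups. *Pck2*, the mitochondrial phosphoenolpyruvate carboxykinase, had 141 CPM in parental replicate 1 and 28.5 CPM in parental replicate 3, with 82.2 and 56.8 CPM in TRC replicates 1 and 3 between them. *Gpt2*, the mitochondrial alanine transaminase, had 83.8 and 21 CPM in the parental libraries and 47.0 and 56.1 CPM in the TRC libraries. *Slc1a5*, a glutamine transporter, had 162 and 76.7 CPM in the parental libraries and 91.5 and 64.3 CPM in the TRC libraries. In these genes parental replicate 1 was the higher library, while all 8 enzymes were higher in parental replicate 3. The latter was not particular to the 8 enzymes. Parental replicate 3 was also higher for 14 of 15 other cycle enzymes tested and 6 of 7 pyruvate entry genes. The same held for 11 of 14 general mitochondrial genes, 8 of 13 exit genes and 4 of 10 glutamine genes. The share over all genes tested is not given here.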
